A study of Mus musculus with 6 samples.

Results

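MITF, the master transcription factor of melanocytes, controls genes of growth, survival and metabolism as well as those of melanin synthesis. The genes followed here are 7 reported MITF targets outside pigment synthesis, *Met*, *Cdk2*, *Tbx2*, *Birc7*, *Ppargc1a*, *Dicer1* and *Apex1*, chosen by name and matched to the mouse symbols of the count table. A row was found for 6 of them among 18324 gene rows, and *Birc7* was not analysed here. The libraries came from B16-F10, a mouse melanoma line obtained from ATCC, after a sort by the light scatter of melanin, with 3 libraries from cells of high pigment (HPC) and 3 from cells of low pigment (LPC). Cells of both groups carried no added treatment or allele that the labels name, so the sort is the stated difference between them. All values thus describe 1 line, and nothing in the labels says that the libraries came from separate cultures. The p-values therefore cover no more than the spread between these libraries. Each HPC library shares a title suffix with 1 LPC library, and these couples are numbered as pairs 1, 2 and 3.

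MITF binds E-box sequences, most strongly those written CATGTG or CACGTG, as a dimer of basic helix-loop-helix leucine zipper subunits. In melanoma, high MITF activity is linked to differentiation and proliferation and low activity to an invasive state. Among its targets, *Met* encodes the receptor of hepatocyte growth factor, *Cdk2* a cyclin-dependent kinase of the G1/S transition, and *Tbx2* a T-box repressor that blocks senescence. *Birc7* encodes the apoptosis inhibitor ML-IAP, *Ppargc1a* the mitochondrial coactivator PGC-1α, *Dicer1* the nuclease that matures microRNAs, and *Apex1* an endonuclease of base excision repair with a redox role.

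The E-boxes near the start sites are shown because they are the letters MITF reads. Windows from 250 bases before to 50 bases after a RefSeq transcription start (GRCm38.p6) were searched for CATGTG, its reverse complement CACATG and the palindrome CACGTG. The first pair can overlap each other, and a window was counted once however many matches it held. Of the 6 genes with a window, 4 held a match (*Met*, *Birc7*, *Ppargc1a* and *Apex1*), and *Cdk2* and *Dicer1* held none. For *Tbx2*, only the gene itself is named. A match occurred in 20.4% of 32851 windows of this length, with the first pair in 14.15% and the palindrome in 7.15%. Counted by gene, the share with a match was 22.75% of 27025 genes. Each match below is printed on the gene's own strand, 5′ to 3′, in capitals with 20 bases on either side. The pigment genes *Tyr*, *Tyrp1* and *Dct* are added for comparison. The windows of the MITF targets are chr6:17463707-17464006 (plus strand) for *Met*, chr2:180928773-180929072 (plus) for *Birc7*, chr5:51567676-51567975 (minus) for *Ppargc1a* and chr14:50924699-50924998 (plus) for *Apex1*. Those of the pigment genes are chr7:87493463-87493762 (minus) for *Tyr*, chr4:80833963-80834262 (plus) for *Tyrp1* and chr14:118052197-118052496 (minus) for *Dct*. The *Apex1* window reaches into *Osgep* on the opposite strand, whose annotated span lies 74 bases from that of *Apex1*. A match is a string of letters and not a measured binding site.
Met, 126 bases upstream of the start: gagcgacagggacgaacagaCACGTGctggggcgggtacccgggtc
Birc7, 43 bases upstream: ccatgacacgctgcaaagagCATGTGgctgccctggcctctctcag
Ppargc1a, 160 bases upstream: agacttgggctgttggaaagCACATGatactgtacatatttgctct
Apex1, 24 bases upstream, the first of 3 matches: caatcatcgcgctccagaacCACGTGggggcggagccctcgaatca
Tyr, 21 bases upstream: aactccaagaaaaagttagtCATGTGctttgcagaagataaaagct
Tyrp1, 46 bases upstream: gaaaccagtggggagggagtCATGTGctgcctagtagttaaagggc
Dct, 150 bases upstream, the nearer to the start of 2 matches: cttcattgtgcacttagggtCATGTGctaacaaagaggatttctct

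The *Cdk2* window is printed whole because *Cdk2* is the only one of these genes that passed a test in any fit described below. It spans chr10:128705002-128705301 on the minus strand, within the annotated span of *Pmel* on the opposite strand. None of the 3 motifs occurs in these letters, which says nothing about binding elsewhere in the locus.
Cdk2: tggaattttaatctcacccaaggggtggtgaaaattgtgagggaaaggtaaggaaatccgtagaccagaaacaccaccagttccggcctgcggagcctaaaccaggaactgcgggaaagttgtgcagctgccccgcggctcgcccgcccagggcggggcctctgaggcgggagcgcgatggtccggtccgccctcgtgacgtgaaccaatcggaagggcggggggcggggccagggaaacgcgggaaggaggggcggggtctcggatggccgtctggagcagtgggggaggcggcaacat

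Gene counts per library lay between 3819605 and 7311131. Pair 2 stood apart: a single row, RP23-81C12.3, held 53.9% of the gene counts in its HPC and 27.1% in its LPC library, against 3.54% to 5.03% elsewhere. The mitochondrial rRNA rows held 12.2% and 7.69% there, against 1.51% to 1.99% elsewhere. Rows with counts numbered 10620 and 12778 there, against 14130 to 15002. The tested MITF targets are therefore given with and without pair 2. All 7 melanocyte markers had counts, and their summed level ranged from 4443 to 20733 CPM in HPC and from 6189 to 17282 CPM in LPC libraries. The lowest value of each group was that of pair 2. Of the markers of keratinocytes, leukocytes, endothelium and fibroblasts, 2 of 6, 3 of 7, 2 of 4 and 3 of 6 had a row. Those rows gave 43, 39, 33 and 159 counts over the 6 libraries together, and none of these genes had enough counts to be tested. The HPC library of pair 2 held 42 of the keratinocyte, 13 of the leukocyte, 20 of the endothelial and 57 of the fibroblast counts. Their summed levels there were 24.4, 7.57, 11.6 and 33.2 CPM, against at most 0.286, 1.49, 1.26 and 5.29 CPM in the LPC libraries. The part of these transcripts in the pair 2 values was not tested, and the fits without pair 2 do not hold that library.

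The comparison asked whether MITF targets outside the pigment pathway differ between HPC and LPC. Levels are CPM, which are counts scaled to a common library size by TMM, and since each read of a 3′-end library marks a transcript's end, they are not divided by length. Of the 7 genes, 5 had enough counts to be tested, and *Met*, *Cdk2* and *Tbx2* had the higher level on the HPC side in all 3 pairs, as did 12.9% of all 11324 genes tested. In edgeR's quasi-likelihood test, 0 of the 5 passed an adjusted p of 0.05, and neither did any other gene (0.00%), while 38 genes (0.336%) had an unadjusted p under 0.05. The HPC libraries lay wholly above the LPC ones for 0 of the 5 genes, against 2.43% of all genes. With the pairs as a block the count over all genes was again 0 (0.00%). With the block and without pair 2, 1 of the 5 genes passed, *Cdk2*, against 1.30% of 11906 genes in either direction and 0.932% in the higher direction. That fit holds only pairs 1 and 3, so almost no spread is left to measure for a single gene. Every call from it below therefore rests mostly on variance pooled over genes. In bulk RNA, a different share of cells expressing a gene and a different amount per cell cannot be told apart.

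**Figure D1:**
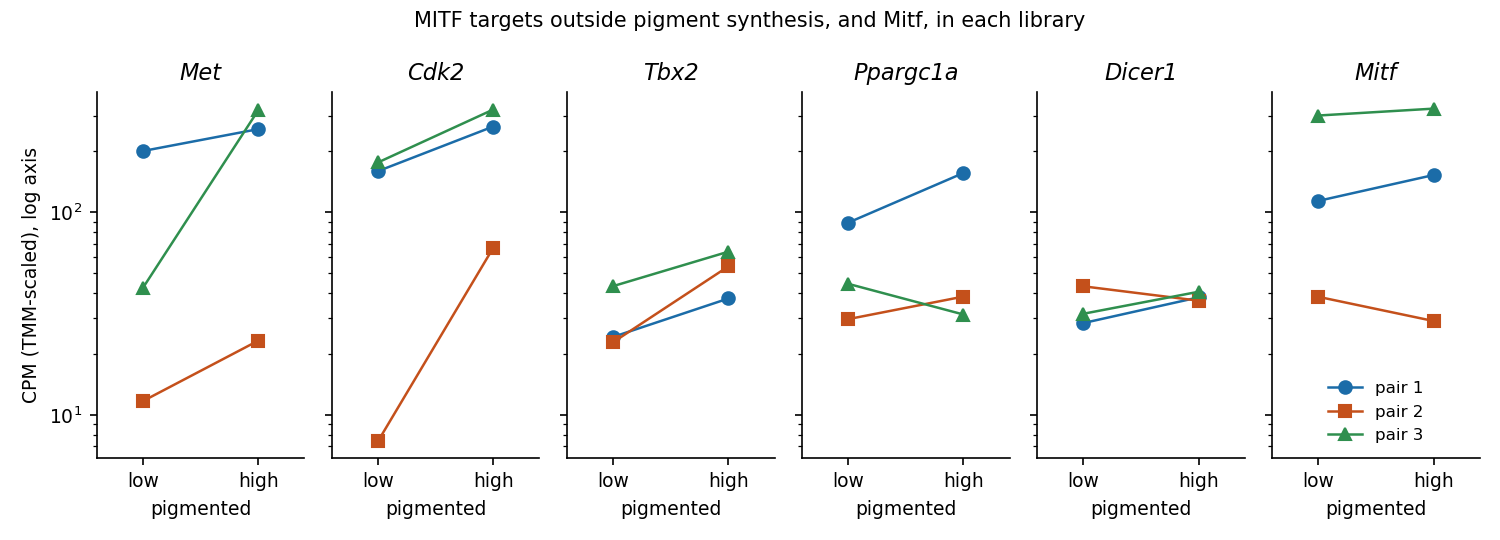
Level of 5 MITF targets and of *Mitf* in each library, in CPM on a log axis, with the LPC library on the left and the HPC one on the right of each panel. Lines join the libraries of a pair; all 3 lines climb for *Met*, *Cdk2* and *Tbx2*, while *Ppargc1a*, *Dicer1* and *Mitf* have lines in both directions.

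*Met* (chromosome 6, 17463800 to 17573980, plus strand, GRCm38) was higher on the HPC side of every pair, by amounts that differed widely between pairs. Its level was 257, 23.3 and 319 CPM in the HPC libraries of pairs 1, 2 and 3, and 201, 11.7 and 42.4 CPM in the LPC ones. Both libraries of pair 2 lay below all others, and the groups overlapped. The ratios of high to low were 1.28, 1.99 and 7.52 in pairs 1, 2 and 3. Their exact 95% intervals, which cover counting error only, ran from 1.19 to 1.38, from 1.25 to 3.15 and from 6.77 to 8.37. The pair 1 ratio exceeded that of 76.0% of tested genes in the same pair, and the pair 3 ratio that of 99.8%. The pair 3 ratio rested on an LPC library of 404 *Met* counts, beside 2727 in its partner. The mean was 199.8 ± 156 CPM in HPC and 84.9 ± 101 CPM in LPC libraries (SD, n = 3 each). The log2 fold change between HPC and LPC, called the log2 difference below, was 1.24 ± 1.11 (SE), with an adjusted p of 0.9996 in edgeR's test. With the pairs as a block it was 1.42 ± 0.58, and without pair 2 as well it was 1.59 ± 1.24 (adjusted p 0.808). Leaving out single libraries moved it from 0.72, without the HPC library of pair 3 or the LPC one of pair 2, to 2.88, without the LPC library of pair 1.

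Like *Met*, the genes that act with the receptor gave no call, in fits that called 0.00% and 1.30% of all genes. Of 18 genes of MET signalling, 13 had a row and 11 were tested, and 0 passed in the comparison of all libraries or in the block fit without pair 2. With so few genes, 0 calls lie near the share over all genes. *Hgf*, the gene of the ligand, was among the 5 that were not analysed here. Their median log2 difference was -0.27, against -0.04 over all genes tested, and 0.17 in the block fit without pair 2, against 0.00. The smallest unadjusted p belonged to *Grb2*, an adaptor that links the receptor to RAS, with 94.3 ± 13.1 CPM in HPC and 70.2 ± 11.3 CPM in LPC libraries (SD, n = 3 each); the fit gave a log2 difference of 0.43 ± 0.36 (SE), or 0.30 ± 0.17 in the block fit without pair 2 (adjusted p 0.499).

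*Cdk2* (chromosome 10, 128697939 to 128705031, minus strand) was higher on the HPC side in all 3 pairs, by similar factors in pairs 1 and 3 and by more in pair 2. Its level was 265, 66.9 and 321 CPM in the HPC libraries of pairs 1, 2 and 3, and 160, 7.43 and 176 CPM in the LPC ones. The HPC libraries of pairs 1 and 3 lay above all 3 LPC libraries, and that of pair 2 did not. Ratios of high to low were 1.66 (95% counting interval 1.53 to 1.80), 9.00 (5.84 to 14.4) and 1.82 (1.72 to 1.94). The ratio of pair 2 came from 115 against 26 counts, while each of the other *Cdk2* values came from at least 966. The log2 difference was 0.93 ± 0.99 (SE; adjusted p 0.9996 in edgeR's test). With the pairs as a block it was 1.46 ± 0.54 (adjusted p 0.927). Without pair 2 and with the block it was 0.79 ± 0.13, and this passed (adjusted p 0.00229, higher in 2 of 2 pairs). With only these 2 pairs, the SE and adjusted p rest mostly on variance pooled over genes. *Cdk2* also passed in limma-voom with sample weights and the block (0.82 ± 0.14, adjusted p 0.0359, in a fit that called 0.300% of genes). It passed in DESeq2 with the block and without pair 2, too (0.80 ± 0.17, adjusted p 0.000163), where 4.60% of the 2673 genes with an adjusted p were called. Without pair 2 and with no block the estimate was 0.79 ± 0.26 and did not pass, in a fit that called 0 genes. Leaving out only the LPC library of pair 2 brought the unblocked estimate to 0.38.

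*Pmel*, the melanosome matrix gene beside *Cdk2*, had ratios close to those of *Cdk2* in pairs 1 and 3 and a ratio below 1 in pair 2. *Pmel* stood at 2176, 148 and 3624 CPM in HPC and at 1344, 222 and 2073 CPM in LPC libraries of pairs 1, 2 and 3. Its ratios were 1.62 (1.57 to 1.66), 0.670 (0.579 to 0.773) and 1.75 (1.72 to 1.78). In pair 2 *Cdk2* was higher and *Pmel* lower on the HPC side, with counting intervals that do not meet. In the block fit without pair 2 *Pmel* rose by a log2 difference of 0.74 ± 0.11 (adjusted p 0.000811). In GENCODE vM21 the genes overlap by 837 bases, of which 34 are exonic in both. The nearest *Pmel* exon lies 6256 bases from the 3′ end of *Cdk2*, and the last 500 exonic bases of *Cdk2* lie under no exon of another gene. Of the last 500 exonic bases of *Pmel*, 21.0% lie under *Dgka*. Whether counting used the strand is not given in the sources used here.

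**Figure D2:**
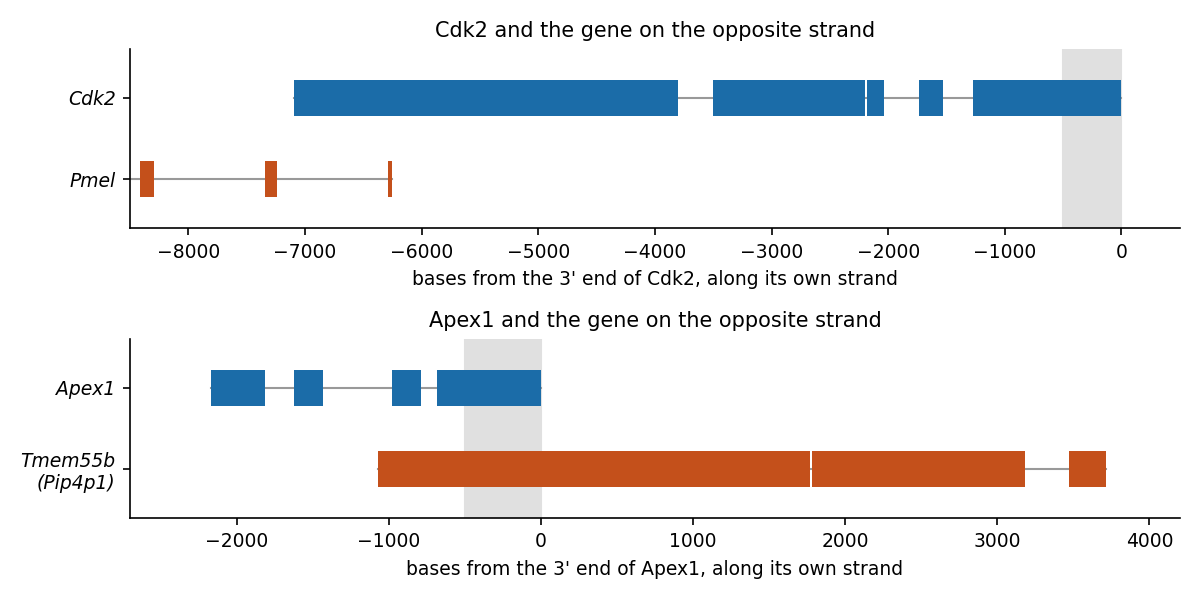
Exons of *Cdk2* with *Pmel* (top) and of *Apex1* with *Tmem55b*, called Pip4p1 in the annotation (bottom), each drawn against the distance in bases from the 3′ end of the first gene. Blocks are exons merged over all annotated transcripts, lines are introns and the shaded band marks the last 500 bases before the end: no *Pmel* exon enters the band, while a *Tmem55b* exon fills it at *Apex1*.

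Of 19 genes for partners of CDK2 (cyclins, inhibitors, regulators and related kinases), 16 were tested and 0 passed over all libraries, with a median log2 difference of 0.18 against -0.04 for all genes. In the block fit without pair 2 the median was -0.02, and 2 rose and 0 fell, beside 0.932% of all genes called higher. One was *Cdk1*, the mitotic kinase, with a log2 difference of 0.91 ± 0.16 (SE, adjusted p 0.00369). Its level differed more between pairs than within them, at 276, 8.73 and 25.8 CPM in HPC and 149, 3.43 and 13.3 CPM in LPC libraries. The other was *Cdkn1a*, which encodes the inhibitor p21 that binds CDK2, at 0.80 ± 0.13 (adjusted p 0.00171). *Cdkn1a* stood at 401, 414 and 301 CPM in HPC and at 211, 140 and 186 CPM in LPC libraries, with no overlap between groups. Of its exonic bases 7.68% lie under an exon on the opposite strand, none of them among the last 500.

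*Tbx2* (chromosome 11, 85832551 to 85841948, plus strand) was likewise higher on the HPC side in all 3 pairs. Its level was 37.6, 54.1 and 64.0 CPM in the HPC libraries of pairs 1, 2 and 3, and 24.3, 22.9 and 43.2 CPM in the LPC ones. The groups overlapped only because the LPC library of pair 3 lay above the HPC one of pair 1. The ratios were 1.55 (1.25 to 1.92), 2.37 (1.74 to 3.23) and 1.48 (1.30 to 1.68). Among the 5 tested genes *Tbx2* had the smallest unadjusted p in the comparison of all libraries, 0.121 in edgeR's test, with means of 51.9 ± 13.3 and 30.1 ± 11.4 CPM (SD, n = 3 each); the fit gave a log2 difference of 0.78 ± 0.45 (SE, adjusted p 0.9996). With the block it was 0.80 ± 0.28 (adjusted p 0.927), and with the block and without pair 2 it was 0.58 ± 0.20 (adjusted p 0.182).

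The T-box relatives *Tbx3* and *Tbx5* had too few counts to be tested. Of 9 genes in the list of T-box relatives and reported targets, 6 were tested, and their median log2 difference was 0.53 over all libraries and 0.50 in the block fit without pair 2. In the latter, which called 1.30% of all genes, only *Cdkn1a*, which TBX2 is known to repress, passed. *Cdkn1a* is a member of 3 of the lists used here, so its call is counted in each.

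*Ppargc1a* (chromosome 5, 51454250 to 51567726, minus strand) was higher on the HPC side in pairs 1 and 2 and lower in pair 3. Its level was 156, 38.4 and 31.3 CPM in the HPC libraries of pairs 1, 2 and 3, and 88.9, 29.7 and 44.4 CPM in the LPC ones. Pair 1 was high in both populations, and pairs 2 and 3 lay close together. The ratio was 1.76 in pair 1 (1.58 to 1.96), 1.29 in pair 2 (0.934 to 1.78) and 0.706 in pair 3 (0.603 to 0.824). The intervals of pairs 1 and 3 exclude each other's values, but they hold counting error only. Means were 75.4 ± 70.2 and 54.3 ± 30.8 CPM (SD, n = 3 each); the fit gave a log2 difference of 0.47 ± 0.70 (SE, adjusted p 0.9996 in edgeR's test). Without the HPC library of pair 1 the sign turned, to -0.66. In the block fit without pair 2 the estimate was 0.17 ± 0.26 (adjusted p 0.876).

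The network that PGC-1α serves showed no call either, which is near the share over all genes (0.00% over all libraries and 1.30% in the block fit without pair 2). Of 21 genes for its relatives, its transcription factor partners, mitochondrial transcription and antioxidant enzymes, 18 were tested and 0 passed in either fit. The median log2 difference was 0.06 over all libraries and -0.11 in the block fit without pair 2. The smallest unadjusted p was that of *Gpx1*, the cytosolic glutathione peroxidase gene, at 82.3 ± 13.9 against 54.0 ± 10.9 CPM (SD, n = 3 each); the groups did not overlap, and the fit gave a log2 difference of 0.60 ± 0.37 (SE). In the block fit without pair 2 it was 0.33 ± 0.18 (adjusted p 0.493).

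*Dicer1* (chromosome 12, 104687742 to 104751952, minus strand) lay between 28.4 and 43.2 CPM in all 6 libraries, the narrowest range of the 5 tested genes. Its level was 38.1, 36.7 and 40.6 CPM in the HPC libraries of pairs 1, 2 and 3, and 28.4, 43.2 and 31.6 CPM in the LPC ones. The LPC libraries lay on both sides of the HPC libraries, which stood close together. Means were 38.4 ± 1.98 CPM for HPC and 34.4 ± 7.76 CPM for LPC (SD, n = 3 each). Ratios were 1.34 (1.10 to 1.64), 0.849 (0.623 to 1.15) and 1.28 (1.10 to 1.5). The log2 difference was 0.16 ± 0.40 (SE, adjusted p 0.9996 in edgeR's test), and 0.38 ± 0.21 in the block fit without pair 2 (adjusted p 0.496). Of 16 other genes of microRNA processing, 15 were tested, with a median of -0.30 over all libraries and 0.02 in the block fit without pair 2. In that fit, which called 0.932% of all genes higher, 1 rose. This was *Ago2*, which encodes the Argonaute protein that cuts target RNA, with a log2 difference of 0.59 ± 0.15 (SE, adjusted p 0.0479). It did not pass in limma-voom with sample weights and the block (0.61, adjusted p 0.111). *Ago2* stood at 166, 100.1 and 138 CPM in HPC and at 113, 50.3 and 88.1 CPM in LPC libraries of pairs 1, 2 and 3.

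**Figure D3:**
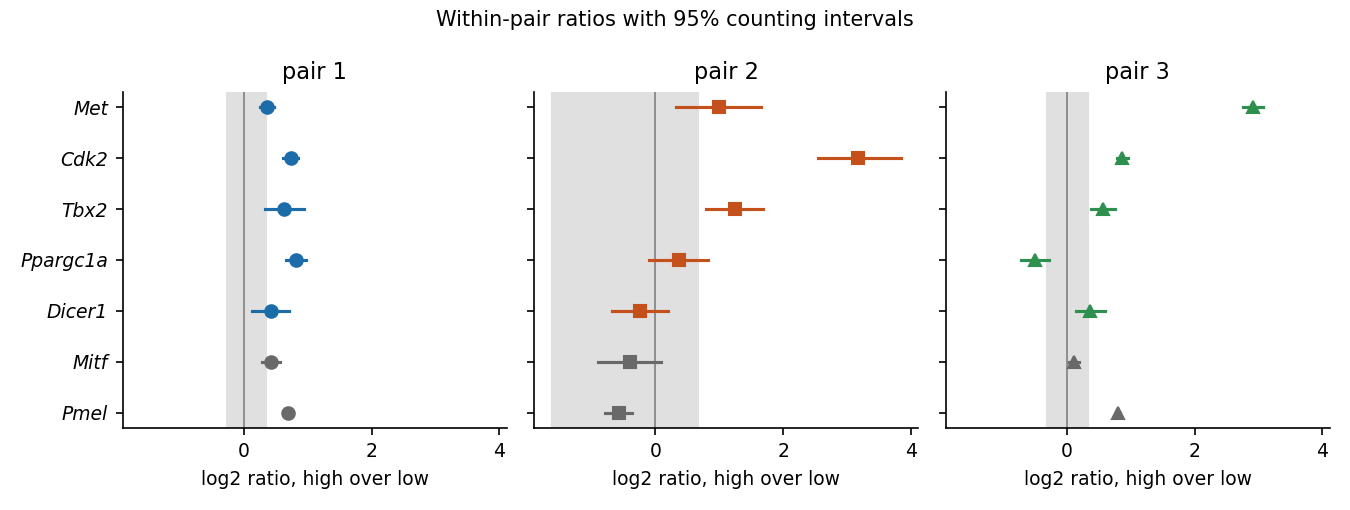
Log2 ratio of the HPC to the LPC library within each pair (points) with exact 95% counting intervals (bars), for 5 MITF targets, *Mitf* and *Pmel*. Grey bands hold the middle 50% of all genes tested, and the *Cdk2* and *Tbx2* points lie to the right of the band in all 3 pairs; the *Met* point does so too, narrowly in pair 1.

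*Apex1* (chromosome 14, 50924968 to 50927139, plus strand) could not be compared. It had 9, 0 and 0 counts on the HPC side of pairs 1, 2 and 3, and 0, 0 and 5 counts on the LPC side. Its 14 counts thus came from 1 library of each population, too few to test. Where it had 0 counts, a floor of 3 counts allows up to 1.75 CPM in pair 2 and 0.351 CPM in pair 3 for HPC, and 0.496 CPM in pair 1 and 0.858 CPM in pair 2 for LPC libraries. All of the last 500 exonic bases of *Apex1* lie under an exon of *Tmem55b* (Pip4p1) on the opposite strand, where the 3′-end reads of *Apex1* would fall. *Tmem55b* had 109, 40 and 249 counts in HPC and 104, 27 and 288 in LPC libraries. An end wholly under an opposite exon was found for 334 protein-coding rows (2.49%), whose median was 155.5 counts over all libraries, against 401 for 11879 rows with no such base. A total of at most the 14 counts of *Apex1* occurred in 18% of the former and 14.4% of the latter. The part of this overlap in the low count of *Apex1* was not tested.

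Other genes of base excision repair and of apoptosis control gave no call over all libraries or in the block fit without pair 2. This is near the share over all genes, which was 0.00% and 1.30%. Of 21 repair genes 16 were tested over all libraries, with a median log2 difference of -0.16, and 17 in the block fit without pair 2, with a median of -0.02. Around *Birc7*, 18 genes of the inhibitor of apoptosis family, its antagonists and caspases were listed. Of these 15 were tested, and the median was 0.03 over all libraries and 0.10 in the block fit without pair 2.

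*Mitf* itself was higher on the HPC side in pairs 1 and 3 but not in pair 2, where its counting interval included 1. It stood at 153, 29.1 and 325 CPM in the HPC libraries of pairs 1, 2 and 3, and at 114, 38.3 and 300.2 CPM in the LPC ones. The pairs differed from each other far more than the populations within them, and pair 2 was lowest. Ratios were 1.34 (1.21 to 1.48), 0.760 (0.538 to 1.06) and 1.08 (1.03 to 1.14). The log2 difference was 0.17 ± 0.91 (SE, adjusted p 0.9996 in edgeR's test) and 0.25 ± 0.14 in the block fit without pair 2 (adjusted p 0.493). Of 15 genes for MITF relatives, upstream factors and cofactors 13 were tested, and 0 passed in either fit, beside 0.00% and 1.30% of all genes. The smallest unadjusted p was that of *Crebbp*, a histone acetyltransferase that MITF recruits. *Crebbp* was lower in the HPC library of all 3 pairs, with 20.5, 83.2 and 31.8 CPM against 27.8, 267 and 71.3 CPM, and its log2 difference was -1.45 ± 0.86 (SE), or -0.84 ± 0.22 in the block fit without pair 2 (adjusted p 0.0616). Leaving out the LPC library of pair 2 alone brought the unblocked *Crebbp* estimate to -0.15, and leaving out the HPC library of pair 2 brought it to -2.21.

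**Figure D4:**
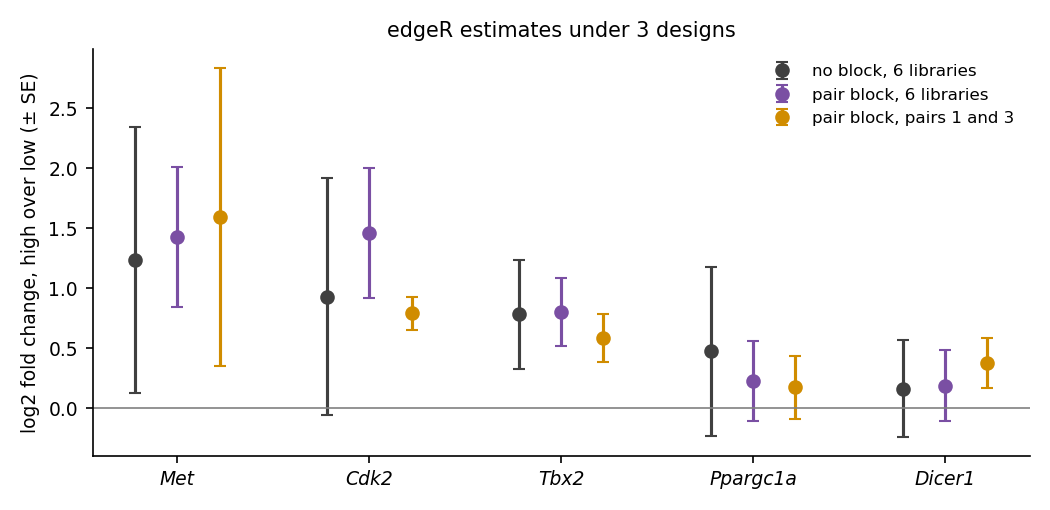
Log2 fold change of 5 MITF targets between HPC and LPC, with bars of 1 SE, in edgeR without a block, with the pairs as a block, and with the block but without pair 2. The *Cdk2* bar narrows to 0.13 in the last fit, whereas that of *Met* widens to 1.24.

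Other reported MITF targets outside pigment synthesis were listed to set these genes beside their class. Of 26 such genes 19 had a row and 17 were tested. None passed over all libraries, and the median log2 difference was 0.16 against -0.04 for all genes. In the block fit without pair 2 the median was 0.30 against 0.00. There 3 rose and 0 fell, beside 0.932% of all genes called higher. The 3 were *Cdkn1a*, given above, *Brca1* and *Gpnmb*. *Brca1*, a gene of DNA break repair, rose by 1.46 ± 0.19 on the log2 scale (SE, adjusted p 0.000101), with 362, 32 and 1184 counts in HPC and 146, 0 and 428 counts in LPC libraries. *Gpnmb*, which encodes a melanosomal glycoprotein, rose by 0.64 ± 0.12 (adjusted p 0.00482), and its levels were 1650, 183 and 907 CPM against 1092, 166 and 560 CPM.

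Of 13 pigment genes, also under MITF control, all were tested and 0 passed over all libraries, with a median log2 difference of 0.58. In the block fit without pair 2 the median was 0.76, and 6 rose and 0 fell, beside 0.932% of all genes called higher. Besides *Pmel*, these were *Trpm1*, a melanocyte cation channel gene, at 2.16 ± 0.18 (SE, adjusted p 4.17e-08), *Oca2* at 1.80 ± 0.35 (adjusted p 0.00858), *Mlph* at 0.87 ± 0.17 (0.0102), *Mreg* at 0.87 ± 0.18 (0.0103) and *Slc45a2* at 0.76 ± 0.13 (0.00281). In pair 2, which that fit leaves out, *Mlph* was lower on the HPC side, with a log2 difference of -1.09. In limma-voom with sample weights and the block, 3 of the 6 did not pass: *Oca2* (adjusted p 0.0762), *Mlph* (0.109) and *Mreg* (0.0939). The 5 tested genes outside the pigment pathway had a median of 0.78 over all libraries and 0.58 in that fit. Whether the lists differ was not tested.

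The genes with the most similar profiles were sought by the root mean square distance between log2 CPM, each centred on its own mean over the 6 libraries, among 7781 other genes averaging at least 10 CPM. The nearest to *Met* were *Gpnmb* and *Pigm*, both at a distance of 0.78, against a median of 1.86 over all these genes. For *Cdk2* they were *Taf13* at 0.30 and *Ctsa* at 0.31 (median 1.89), and for *Tbx2* they were *Abat* at 0.10 and *Prrg2* at 0.13 (median 0.84). *Ppargc1a* was nearest to *Gm22292* at 0.25 and *Sulf2* at 0.31 (median 1.06), and *Dicer1* to *Stard8* and *Pank2*, both at 0.11 (median 0.66). All of these profiles share the same 6 libraries. The distance also counts differences between pairs, so a near profile need not have a like difference between HPC and LPC. In the block fit without pair 2, the log2 difference was 0.17 for *Taf13* (adjusted p 0.797) and 0.27 for *Ctsa* (adjusted p 0.692), against 0.79 for *Cdk2*.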

How the data were processed

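The deposited values are raw read counts by gene and library. HTSeq produced them, per the name and tally rows of the authors' table. STAR and the build GRCm38 are named in the submitters' processing notes; versions, annotation and use of strand are not given in the sources used here. Library preparation used the Lexogen QuantSeq forward kit for 3′ ends, per the labels. Rows were identified by mouse symbol, because the human symbol column lists *Met* under MST1R, *Cdk2* under CDK3 and *Tbx2* under TBX3. Tally rows were left out; reads overlapping no gene made up 12.4% to 29.5% of tallied reads.

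Genes were tested with edgeR 4.0.16 (glmQLFit, robust, and glmQLFTest) in R 4.3.3 after filterByExpr (minimum count 10) and TMM, over 11324 genes, with Benjamini-Hochberg adjustment. SEs come from the test statistic. Within-pair log2 differences for direction and similarity add a prior count of 2 before the log. Ratio intervals are exact (Clopper-Pearson), and cover counting error only, since molecular identifiers are not mentioned. Same-suffix libraries deviated together from their group means (correlations over genes of 0.466, 0.316 and 0.422). HPC and LPC libraries of different suffixes gave -0.277 to -0.021, so the suffix was taken to pair them. Every library differed from each other one by more than sampling noise (chi-square at least 14.5 times its degrees of freedom). Alternatives were the block, other tools and filters, and leaving out libraries or pair 2. The edgeR fits without the block, with it, and with it but without pair 2 were also run on simulated counts. Results of those runs are not reported here. Gene models are GENCODE vM21 and promoter windows RefSeq, both GRCm38. Named genes are the 7 members, *Mitf*, *Pmel*, list genes that passed with all libraries or in the block fit without pair 2 (otherwise the smallest p), and the 2 nearest profiles; some genes this rule names are not reported here. The members and lists were chosen with earlier results of these data known.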

Additional observations from a re-analysis of the deposited data

Results flagged for a closer look

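Reads that overlapped more than 1 gene are in no comparison above. Genes with exons where such reads could fall include *Apex1*, *Tmem55b*, *Pmel*, *Cdk2*, *Cdkn1a* and *Ago2*. In pair 1 the share of such reads among tallied reads was 1.97% for HPC and 2.21% for LPC. In pair 2 it was 0.487% and 1.02%, and in pair 3 it was 2.43% and 2.51%. These reads cannot be assigned to a gene from the table.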

How the results depend on the processing

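Over all genes, 0 were called with all 6 libraries and no block, with the replicate block (213 with an unadjusted p under 0.05), and in the other edgeR and DESeq2 fits without both changes. The count was 155 with the replicate block and without pair 2, 34 in limma-voom with sample weights and the replicate block, and 123 in DESeq2 with the replicate block and without pair 2, which was chosen after the data were seen. In each of these 3 fits *Cdk2* was the only one of the 5 tested members that passed. The other reported targets *Cdkn1a*, *Brca1* and *Gpnmb* passed in each of these fits as well. In the DESeq2 one, *Tbx2* and *Dicer1* had no adjusted p, so neither was judged there. Of 75 estimates for the 5 tested MITF targets under 15 alternatives, 71 kept their direction and gained no call, the 3 *Cdk2* calls were gained, and 1 turned its sign. The 71 include the *Tbx2* and *Dicer1* estimates that had no adjusted p. Leaving out single libraries moved *Ppargc1a* from -0.66 to 1.03, *Mitf* from -0.73 to 1.16, *Pmel* from -0.07 to 1.35, *Gpnmb* from -0.16 to 1.33, *Cdk1* from -1.66 to 3.61, *Mlph* from -0.23 to 1.12 and *Crebbp* from -2.21 to -0.15 on the log2 scale; the cause was not tested, and leaving out 1 library also breaks a pair. Few counts limit the precision for *Apex1*, with 14 in all, and for pair 2, where *Cdk2* had 26 counts in the LPC library and *Met* had 40 and 41.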
